A study of Mus musculus with 12 samples.

Results

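The response of the mouse retina to the GSK3 inhibitor CHIR99021 was compared between 2 strains, as the effect of the inhibitor in explants of 129 mice minus its effect in explants of B6 mice. The comparison rests on 8 of the 12 arrays of the series, all of them explants, with 2 arrays in each of 4 groups. These were B6 (C57BL/6NCrSlc) explants with vehicle, B6 explants with CHIR99021, and the same pair from 129 (129X1/SvJJmsSlc) mice. The mice were 10 weeks old and, by the methods of the study, male. Neural retina was kept on a membrane for 3 days, with 15 µM CHIR99021 by the labels, whereas the methods give either of 2 doses for explants. By the same methods, control explants received the DMSO vehicle, and explant medium held EdU. The remaining arrays, 2 intact retinas of each strain, entered the fit only to estimate the spread. Expression was measured on Affymetrix 3′ expression arrays of the mouse genome, on which a probe set is a group of oligonucleotides read as 1 value. The labels number the arrays as biological replicates without saying whether the retinas came from separate animals, so that the p-values measure the spread between these arrays.

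GSK3 is a kinase that marks beta-catenin for destruction, and its inhibition lets beta-catenin enter the nucleus and switch on Wnt target genes such as Axin2 and Nkd1. Müller glia are the radial glia of the retina. After damage they can leave their resting state, and in some vertebrates they divide and replace lost neurons. The study asked how this capacity varies between mouse strains, and the comparison here addresses where the transcriptional response to the inhibitor depends on the strain. The measurements are of whole retina, in which fewer cells of a type and less RNA per cell cannot be told apart.

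All values are log2 intensities or differences of them, so that a difference of 1 is a doubling. The interaction is the log2 difference between CHIR99021 and vehicle in 129 minus that in B6. A positive interaction, called higher here, means that the value moved further up or less far down in 129, and a negative one, called lower, the opposite. A probe set was called at a Benjamini-Hochberg adjusted p under 0.05 over all 45037 non-control probe sets in a limma fit of all 6 groups, and errors are standard errors (SE) of that fit, with n = 2 arrays a group. Array medians lay between 68.8 and 70.7 intensity units. Within the explants the rod markers Gnat1 and Nrl read 11.08 to 12.95, and the Müller glia markers Glul, Rlbp1 and Sox9 read 8.08 to 12.68. The lens crystallins Cryaa and Crygd read 3.46 to 5.4 and the erythrocyte markers Hba-a1 and Alas2 3.46 to 4.24, below the median of all probe sets of 6.13. Markers of the pigmented epithelium (Rpe65 and Ttr) read 4.35 to 7.17 in the explants and 8.23 to 13.14 in intact retina. On the intact 129 arrays, which entered the estimate of the spread, Cryaa read 8.5 and 12.4 and Crygd 4.26 and 7.84.

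The strains differed in their response at 610 probe sets, of which 175 (0.389% of those tested) were called higher and 435 (0.966%) lower. For comparison, the inhibitor changed 5517 probe sets in 129 and 8378 in B6. The 175 had a median interaction of 1.03, with 90 of them at 1 or more, and the 435 a median of -0.84, with 136 at -1 or less. In the higher set, 94 probe sets rose in 129 and were not called in B6, 44 fell in B6 and were not called in 129, 13 rose in 129 and fell in B6, 14 fell in both strains and 10 rose in both. In the lower set, 329 rose in B6 and were not called in 129, 48 fell in 129 and were not called in B6, 34 fell in 129 and rose in B6, 18 rose in both and 6 fell in both. Both sets therefore held mainly probe sets called in 1 strain, which was 129 for the higher set and B6 for the lower set.

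**Figure D1:**
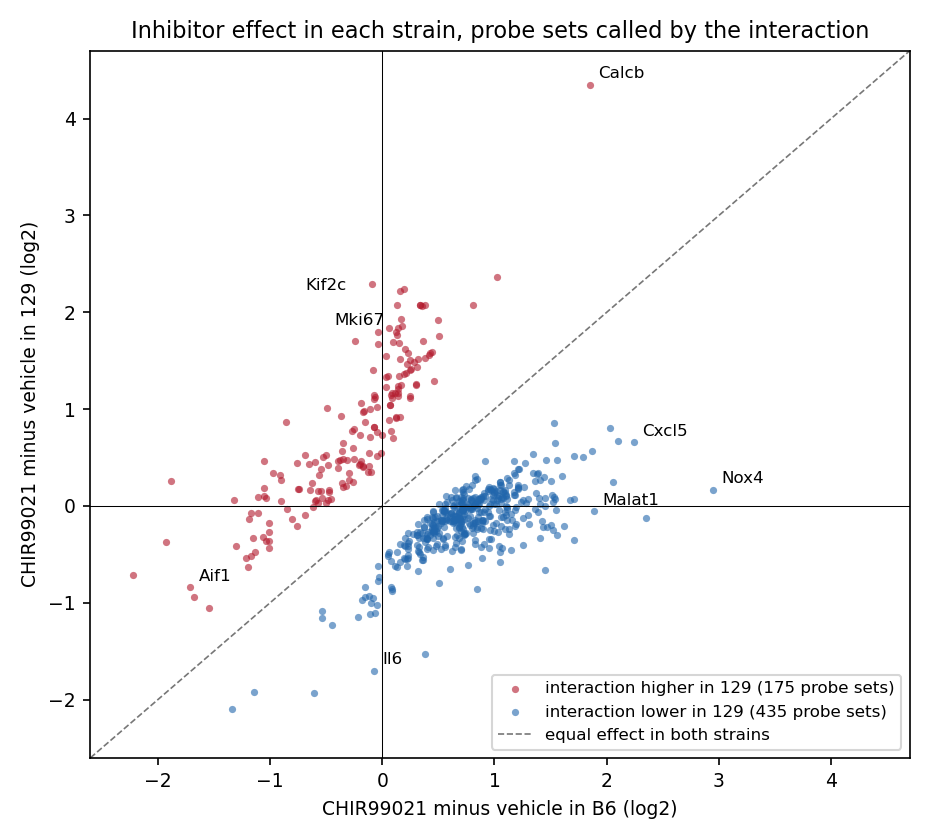
Each point is 1 of the 610 probe sets called by the interaction, with the log2 effect of CHIR99021 in B6 on the horizontal axis and in 129 on the vertical axis, and the dashed line marks an equal effect in both. The 175 higher probe sets lie above the line, with many near 0 in B6, and the 435 lower ones lie below it, with many near 0 in 129.

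The count of 610 depended on single arrays. It was 219 and 287 without B6 vehicle replicate 1 or 2, 192 without B6 CHIR99021 replicate 1, 297 and 149 without 129 vehicle replicate 1 or 2, and 204 and 350 without 129 CHIR99021 replicate 1 or 2. For the higher set the same omissions left 61, 82, 50, 86, 39, 60 and 142, and for the lower set 158, 205, 142, 211, 110, 144 and 208. Each leaves a group of 1 array, which is then assumed to vary like the other groups.

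Genes of cell division were a group with a larger rise in 129. Of 61 measured genes of mitosis (spindle, kinetochore, chromosome condensation and cytokinesis), 37 were called higher and none lower, with a median interaction of 0.88, where 0.599% of all 18193 genes were called higher and the median of all genes was 0.03. In 129, 51 of the 61 rose and 1 fell with a median of 1.0, and in B6, 9 rose and 3 fell with a median of 0.12. Over all genes, 7.28% rose and 7.86% fell in 129, and 8.58% rose and 12.5% fell in B6. The list was chosen with earlier results of these data known.

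Mki67, the antigen of the Ki-67 proliferation marker, read 6.86 and 6.62 in B6 explants with vehicle, 6.93 and 6.88 in B6 with CHIR99021, 7.04 and 7.05 in 129 with vehicle, and 9.18 and 8.77 in 129 with CHIR99021. Both 129 arrays with the inhibitor thus stood above every other explant array, and the other 3 groups lay within a narrow range. Its interaction was 1.76 ± 0.2 (SE, adjusted p = 0.00408), with an effect of 1.93 ± 0.14 in 129 and 0.17 ± 0.14 in B6. Birc5, which encodes the chromosomal passenger protein survivin, read 6.06 and 5.98, then 5.99 and 5.96 in B6, and 6.25 and 5.89, then 8.0 and 7.75 in 129, each time vehicle before CHIR99021. The interaction of Birc5 was 1.84 ± 0.19 (adjusted p = 0.00283). The pattern was the same as for Mki67, with a rise of 1.8 in 129 and a difference of -0.04 in B6.

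Cdc20, the activator of the anaphase-promoting complex, read 6.88 and 6.85 with vehicle and 6.9 and 6.95 with CHIR99021 in B6, and 7.0 and 6.88 with vehicle and 8.94 and 8.62 with CHIR99021 in 129. Its interaction was 1.78 ± 0.24 (adjusted p = 0.0075). A second probe set of Cdc20 was called as well (1.09), and another was not (0.19). Melk, a kinase of dividing cells, differed in that it also rose in B6. It read 4.18 and 4.19, then 4.55 and 4.58 in B6, and 4.79 and 4.97, then 6.94 and 6.97 in 129, with rises of 0.38 ± 0.09 in B6 and 2.07 ± 0.09 in 129 and an interaction of 1.69 (adjusted p = 7.46e-04). Cdca5, which encodes the cohesion factor sororin and is not in the list, read 4.71 and 4.7, then 4.94 and 5.15 in B6, and 5.2 and 5.08, then 7.44 and 7.01 in 129, with an interaction of 1.74 ± 0.23 (adjusted p = 0.00737).

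**Figure D2:**
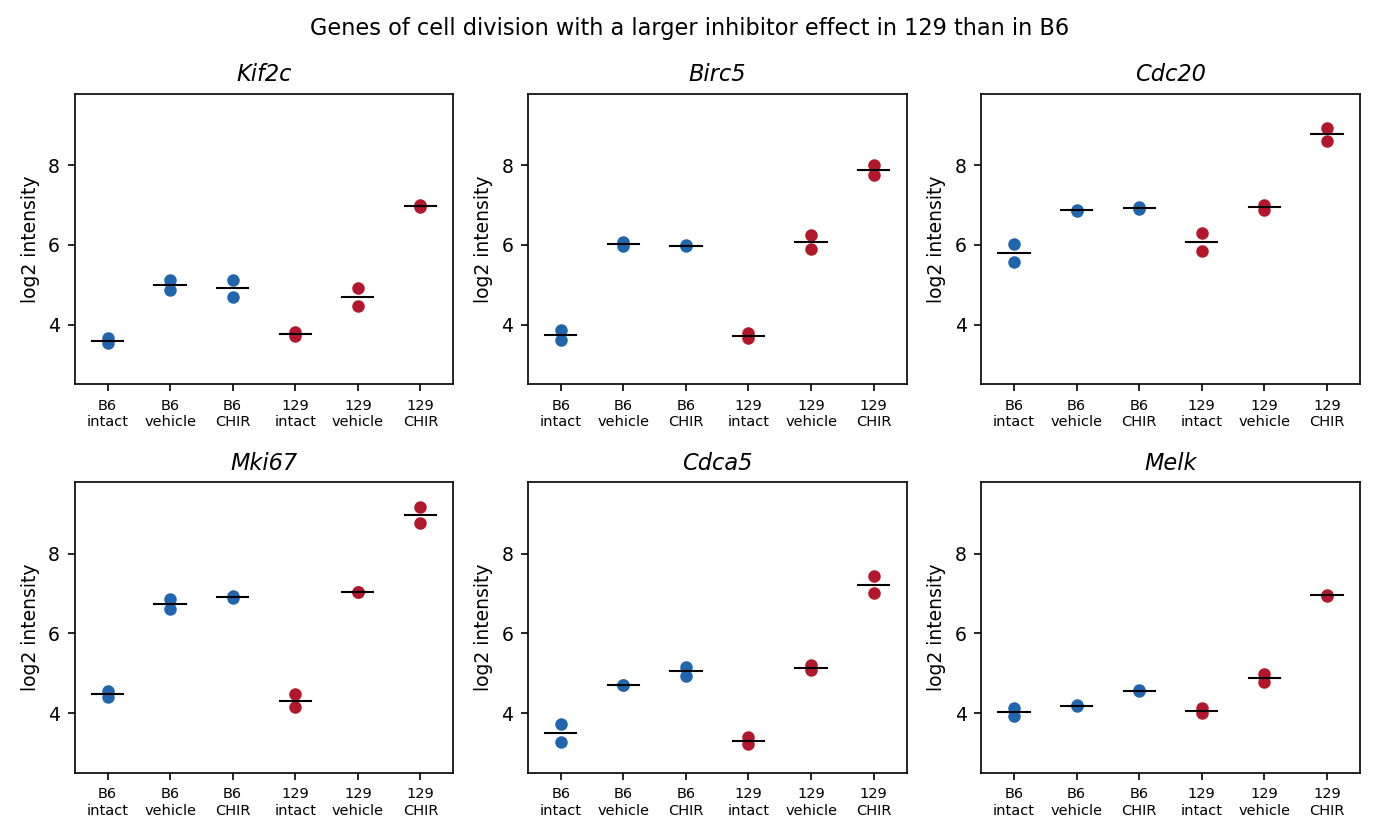
Log2 intensity of 6 genes of cell division on each array (points, 2 a group) with the group mean (line), B6 in blue and 129 in red. In each panel the 129 arrays with CHIR99021 are the highest. Between the B6 explants with vehicle and with CHIR99021, the largest mean difference is the 0.38 of Melk.

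A larger interaction was that of Kif2c, a microtubule-depolymerising kinesin at centromeres, at 2.38 ± 0.23 (adjusted p = 0.00198). It read 5.13 and 4.86, then 4.69 and 5.12 in B6, and 4.92 and 4.46, then 7.0 and 6.96 in 129. The 3 other probe sets of Kif2c had interactions of 0.34, 0.58 and -0.01, and none was called, so that its call rests on 1 probe set. The probe set that stands for Kif2c in the list is the one at -0.01, and Kif2c is therefore not among the 37. Spc25, a subunit of the Ndc80 kinetochore complex, had an interaction of 1.71 ± 0.22 (adjusted p = 0.00613) but another order of levels. It read 8.56 and 8.71, then 8.57 and 8.61 in B6, and 6.49 and 6.13, then 8.18 and 7.79 in 129, so that the rise in 129 ended below the B6 level, and intact B6 retina read 11.18 and 11.43. The other probe set of Spc25 was not called (0.22).

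Ube2c, the ubiquitin-conjugating enzyme of the anaphase-promoting complex, had an interaction of 1.94 ± 0.34 (adjusted p = 0.0239), and the spindle checkpoint kinase Bub1 one of 1.74 ± 0.3 (adjusted p = 0.0207). The call of Ube2c ended without any 1 of the explant arrays except B6 CHIR99021 replicate 2 and 129 CHIR99021 replicate 2, at values of 1.61 to 2.27. That of Bub1 ended without any 1 except B6 vehicle replicate 2 and 129 CHIR99021 replicate 2, at 1.4 to 2.08. Among members named after their values were seen, the mitotic kinase Cdk1 (1.35, adjusted p = 0.026) and cyclin B2, Ccnb2 (1.42, adjusted p = 0.00402), were called, while topoisomerase Top2a (1.15, adjusted p = 0.0524) and the transcription factor Foxm1 (0.09, adjusted p = 0.745) were not. The 37 called members numbered 13 and 19 without B6 vehicle replicate 1 or 2, 11 without B6 CHIR99021 replicate 1, 22 and 10 without 129 vehicle replicate 1 or 2, and 10 without 129 CHIR99021 replicate 1. The median of the list lay between 0.83 and 0.98 without any 1 array. With only probe sets above the median level tested, 18 members were called, but members with a dimmer probe set were then not tested. With the 5′ minus 3′ difference of spike-in RNAs as a covariate, chosen after seeing the data, 1 member was called and the median was 0.85.

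Promoter sequences of mitosis genes are shown because their members moved together, and because many genes of late cell cycle carry a cell cycle genes homology region (CHR, searched as TTTGAA) and CCAAT boxes. Of the 37 called members, 31 had a promoter in the RefSeq table (250 bases before to 50 after the first listed start, GRCm38.p6). A CHR on either strand was found in 22 of the 31 (71.0%) and a CCAAT on either strand in 23 (74.2%). Among all 27025 promoters the shares were 18.1% and 37.9%. Of the mitosis genes that were not called, 18 had a promoter, and 12 of these (66.7%) held a CHR and 10 (55.6%) a CCAAT. The shares of called and uncalled members were not tested against each other. Among the genes called lower the shares were 11.5% of 279 promoters for the CHR and 44.8% for the CCAAT. The 4 called members with the largest interaction are printed from 5′ to 3′ along the gene, with the matches of both motifs in capitals. TTCAAA and ATTGG are the matches on the other strand, and neighbouring matches can join.
Ube2c, chr2:164769679-164769978 (+): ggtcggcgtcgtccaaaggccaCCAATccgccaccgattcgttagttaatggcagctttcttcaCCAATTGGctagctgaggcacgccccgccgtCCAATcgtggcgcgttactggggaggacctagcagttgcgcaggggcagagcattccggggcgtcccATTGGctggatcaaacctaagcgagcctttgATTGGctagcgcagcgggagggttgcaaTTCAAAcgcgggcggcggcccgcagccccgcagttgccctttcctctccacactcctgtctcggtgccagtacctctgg
Birc5, chr11:117848987-117849286 (+): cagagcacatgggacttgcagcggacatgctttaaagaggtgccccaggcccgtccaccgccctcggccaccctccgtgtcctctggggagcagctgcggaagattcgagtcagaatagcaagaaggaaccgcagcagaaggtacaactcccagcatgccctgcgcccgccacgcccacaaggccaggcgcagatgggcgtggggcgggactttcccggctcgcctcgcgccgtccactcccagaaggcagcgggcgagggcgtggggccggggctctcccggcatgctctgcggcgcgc
Cdc20, chr4:118437294-118437593 (-): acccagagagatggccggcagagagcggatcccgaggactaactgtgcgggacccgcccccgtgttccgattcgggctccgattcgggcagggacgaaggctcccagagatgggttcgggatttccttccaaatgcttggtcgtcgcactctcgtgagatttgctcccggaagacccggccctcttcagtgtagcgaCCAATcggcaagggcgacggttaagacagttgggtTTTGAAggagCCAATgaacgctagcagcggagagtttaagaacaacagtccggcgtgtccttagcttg
Mki67, chr7:135716330-135716629 (-): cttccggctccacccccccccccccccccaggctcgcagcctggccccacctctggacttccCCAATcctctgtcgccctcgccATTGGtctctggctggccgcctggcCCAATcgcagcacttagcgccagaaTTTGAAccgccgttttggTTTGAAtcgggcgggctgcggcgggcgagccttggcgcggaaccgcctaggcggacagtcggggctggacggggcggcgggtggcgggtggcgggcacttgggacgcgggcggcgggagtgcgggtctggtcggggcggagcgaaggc
The window of Ube2c held 1 CHR and 6 CCAAT matches, that of Cdc20 1 and 2, and that of Mki67 2 and 3, while that of Birc5 held neither.

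Genes of DNA replication moved in the same direction, with fewer calls. Of 53 measured, 4 were called higher and none lower, with a median interaction of 0.36. Over all genes, 0.599% were called higher, at a median of 0.03. In 129, 22 rose and 1 fell, where 7.28% of all genes rose and 7.86% fell. In B6, 2 rose and 6 fell, shares not above the 8.58% and 12.5% of all genes. Mcm7, a subunit of the replicative helicase, took its interaction of 1.04 ± 0.14 (adjusted p = 0.00737) from B6. It read 9.54 and 9.53, then 8.35 and 8.51 in B6, and 9.8 and 9.92, then 9.91 and 9.67 in 129. It thus fell in B6, with an effect of -1.11, with no call in 129 (-0.07), and its 3 other probe sets were called in the same direction (0.95 to 1.24). Mcm5 of the same helicase (0.99), the histone chaperone Asf1b (0.93) and thymidine kinase Tk1 (0.88) were the others called. The 4 called members of the list numbered 1 without any 1 of both B6 vehicle arrays, B6 CHIR99021 replicate 1, both 129 vehicle arrays and 129 CHIR99021 replicate 1, and 7 without 129 CHIR99021 replicate 2. The calls of Mcm5 and Tk1 ended without any 1 explant array except 129 CHIR99021 replicate 2, at 0.83 to 1.16 and 0.76 to 1.0, and that of Asf1b without any 1 except this array and B6 CHIR99021 replicate 2, at 0.8 to 1.05. The polymerase clamp Pcna was not called (0.28, adjusted p = 0.385). The number called was 7 with only probe sets above the median level or with q-values, 14 with a trend and robust estimation of the variance, and 0 by limma with the spike-in covariate, at a median of 0.48.

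The G1 regulators gave no call by the interaction. None of 24 was called, with a median interaction of 0.02, where 0.599% of all genes were called higher and 0.357% lower. Cyclin D1, Ccnd1, which carries cells through G1, read 9.74 and 10.02, then 10.09 and 10.11 in B6, and 10.61 and 10.81, then 10.83 and 10.63 in 129. Its interaction was -0.2 ± 0.19 (adjusted p = 0.666), with no call in either strain. Ccnd3 fell in both strains, by an effect of -0.6 in 129 and -0.73 in B6, and its interaction of 0.12 was not called.

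**Figure D3:**
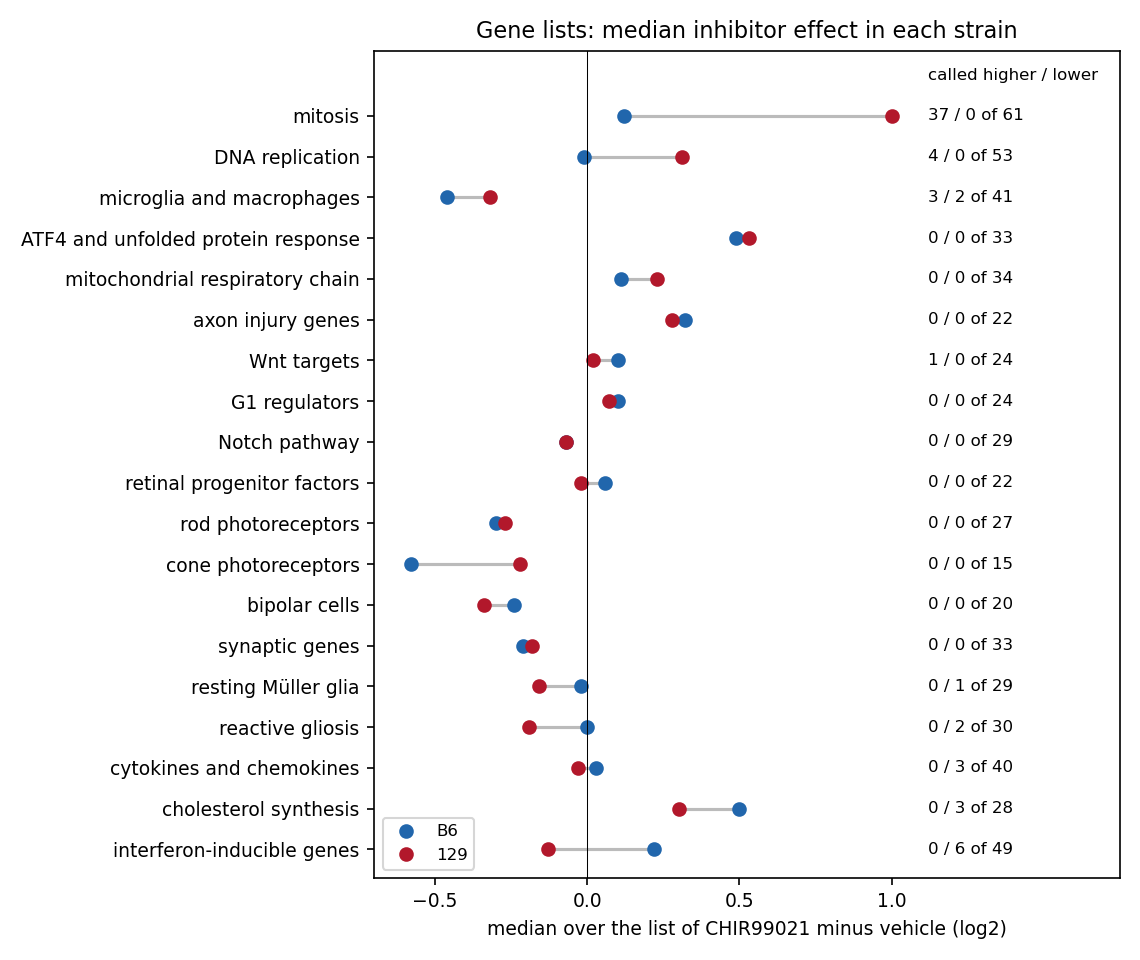
Median over each gene list of the log2 effect of CHIR99021 in B6 (blue) and in 129 (red), with the number of members called higher and lower by the interaction beside it. The medians of the mitosis list lie furthest apart, at 1.0 in 129 and 0.12 in B6.

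The Wnt targets, the genes closest to the kinase that CHIR99021 blocks, gave 1 call. Of 24 measured, 1 was called higher and none lower, with a median interaction of -0.03. Over all genes, 0.599% were called higher and 0.357% lower, at a median of 0.03. Nkd1, a feedback inhibitor of the pathway, rose in both strains. It read 6.54 and 6.64, then 8.36 and 8.24 in B6, and 7.7 and 7.45, then 8.93 and 9.02 in 129, with effects of 1.71 ± 0.1 and 1.4 ± 0.1 and an interaction of -0.31 ± 0.15 (adjusted p = 0.368). The groups did not overlap between vehicle and inhibitor in either strain. Axin2, the scaffold of the destruction complex, had effects of 0.45 ± 0.09 in 129 (adjusted p = 0.00852) and 0.28 ± 0.09 in B6 (adjusted p = 0.051), and an interaction of 0.17 ± 0.13 (adjusted p = 0.583). The ubiquitin ligase Znrf3, which removes Wnt receptors, rose in both strains, by 0.35 in 129 and 0.38 in B6, with an interaction of -0.03. The transcription factor Lef1 (-0.1), the deacylase Notum (-0.15), the receptor Lgr5 (0.13), the ligase Rnf43 (0.12) and the inhibitor Apcdd1 (0.18) were not called either.

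Sp5, a transcription factor directly induced by beta-catenin, was the called member. It read 4.62 and 4.61, then 5.22 and 4.93 in B6, and 4.56 and 4.69, then 6.0 and 5.83 in 129. It thus rose in both strains, by 0.46 in B6 and by 1.29 in 129, with an interaction of 0.83 ± 0.16 (adjusted p = 0.0357). The call ended without any 1 explant array except B6 CHIR99021 replicate 1, at 0.68 to 0.98. Tnfrsf19, another target, had values close to those of Sp5 (1.05 in 129, 0.27 in B6) but was not called by the interaction (0.78, adjusted p = 0.14). Of 51 pathway components, 1 was called lower and none higher, where 0.357% of all genes were called lower. Ndp, the Norrin ligand of retinal vessels, fell in 129 (-0.3) and rose in B6 (0.31), with an interaction of -0.61 (adjusted p = 0.0235) that ended without any 1 explant array except B6 CHIR99021 replicate 2, at -0.64 to -0.57.

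**Figure D4:**
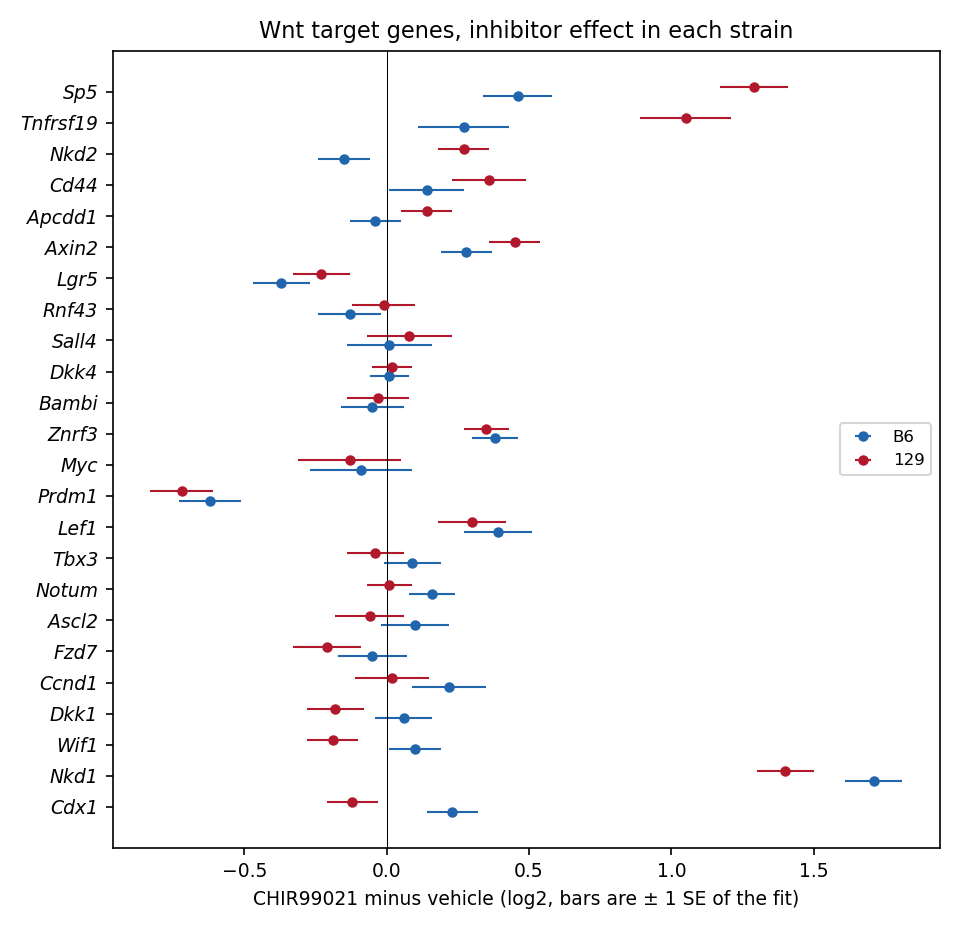
Log2 effect of CHIR99021 on each of 24 Wnt target genes in B6 (blue) and 129 (red), ordered by the interaction, with bars of 1 SE of the fit. Nkd1 rises in both strains, Sp5 rises further in 129, and most other targets lie near 0.

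Other genes that the study follows gave no call at the probe set that stands for the gene. These were the Müller glia enzyme Glul (0.11), the glial factor Sox9 (0.08), the intermediate filament genes Nes (0.21) and Gfap (-0.54), the chromatin protein gene Hmga2 (0.41), Myc (-0.04), the eye field factor Pax6 (-0.28) and the endothelin receptor Ednrb (-0.37). One other probe set each of Pax6 (-1.2, adjusted p = 0.0075) and Ednrb (-1.3, adjusted p = 0.0244) was called lower. Lin28a, which blocks let-7 maturation, was called higher at a low level (0.78, adjusted p = 0.0352), with 4.19 to 4.64 in 129 and 4.78 to 5.39 in B6. Its call ended without any 1 explant array except the second replicates of B6, at 0.65 to 0.91, and its other probe set was not called (0.2). Mbd1, a reader of methylated DNA, read 11.01 and 11.05, then 10.06 and 9.97 in B6, and 9.6 on both arrays, then 9.13 and 9.21 in 129. It fell in both strains and further in B6, with an interaction of 0.59 ± 0.11 (adjusted p = 0.0335). This call ended without any 1 of the 8 explant arrays, at 0.54 to 0.63, and 4 other probe sets of Mbd1 were not called (0.19 to 0.55).

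Outside these lists, the largest positive interaction was that of Calcb, which encodes the beta form of calcitonin gene-related peptide. It read 4.17 and 4.35, then 5.96 and 6.26 in B6, and 3.92 and 4.12, then 8.57 and 8.18 in 129. It rose in both strains, by 1.85 ± 0.14 in B6 and 4.35 ± 0.14 in 129, with an interaction of 2.5 ± 0.2 (adjusted p = 7.91e-04). Rbp4, the plasma carrier of retinol, rose in 129 from 5.81 and 5.67 to 7.87 and 7.29 and in B6 read 5.27 and 5.39, then 5.23 and 5.72. Its interaction of 1.7 (adjusted p = 0.0122) ended without B6 vehicle replicate 2 or 129 vehicle replicate 2, at 1.41 to 1.98. Slc5a8, a monocarboxylate transporter, rose in 129 (0.87) and fell in B6 (-0.86), from levels of 3.25 and 3.37 in 129 and 7.12 and 7.54 in B6. Its interaction of 1.73 (adjusted p = 0.0199) ended without any 1 of B6 vehicle replicate 2, B6 CHIR99021 replicate 1, 129 vehicle replicates 1 and 2 and 129 CHIR99021 replicate 1, at 1.44 to 2.03. The metallothionein Mt3 (1.2), the high-mobility group gene Hmgb2 (1.17) and the procollagen protease Bmp1 (0.61) took their calls from a fall in B6. Mt3 lost its call without any 1 of B6 vehicle replicate 1, B6 CHIR99021 replicate 1 and 129 vehicle replicate 2, at 0.98 to 1.42. Hmgb2 lost it without any 1 of the B6 arrays, 129 vehicle replicates 1 and 2 and 129 CHIR99021 replicate 1, at 0.98 to 1.36, and Bmp1 without any 1 explant array except B6 CHIR99021 replicate 2 and 129 vehicle replicate 1, at 0.57 to 0.65.

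The probe sets called lower had a common shape. For 372 of the 435 the B6 vehicle explants had the lowest of the 4 explant means, and 384 were called higher in 129 than in B6 with vehicle, against 35 with CHIR99021. The 435 were selected by the interaction on these same arrays, and a low B6 vehicle mean makes the interaction lower. The selection therefore favours this shape. The median level of the 435 was 6.39 and 6.4 on the B6 vehicle arrays, 7.32 and 7.25 with CHIR99021 in B6, 7.32 and 7.36 with vehicle in 129, and 7.19 and 7.2 with CHIR99021 in 129. With vehicle the strains thus stood apart, and with the inhibitor the medians lay close together. The strains also stood apart in intact retina, at 6.62 and 6.71 in B6 and 7.12 and 7.07 in 129. In the higher set the strain difference grew with the inhibitor for 116 of 175.

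A technical measure moved with this shape. Poly-A spike-in RNAs are bacterial transcripts added to the sample before labelling, and their 5′ probe sets read lower than the 3′ ones where labelled copies are short. For the spike-in dap, 5′ minus 3′ was -4.23 and -4.09 on the B6 vehicle arrays and between -2.8 and -2.07 on the other 6 explant arrays. For the spike-in thr it was -3.64 and -3.46 on the B6 vehicle arrays and between -2.85 and -2.16 on the others. The spike-ins lys (-0.48 and -0.9 against -0.91 to -0.41) and phe (-1.01 and -0.82 against -0.86 to -0.38) did not separate these arrays. The mean over 4 spike-ins was -2.34 and -2.32 on the B6 vehicle arrays and between -1.68 and -1.29 on the other explant arrays. On the intact arrays this mean was -1.88 and -2.17 in B6 and -1.61 and -1.63 in 129. Of the mouse controls, 18S RNA had the same pattern, with 5′ minus 3′ of 0.18 and -0.08 on the B6 vehicle arrays and 0.49 to 0.74 on the other 6 explant arrays. Its 5′ probe set read 8.03 on B6 vehicle replicate 2 and 9.81 to 11.02 on the other explants. Beta-actin and Gapdh did not have this pattern, with values between -0.77 and -0.58 and between -0.01 and 0.03 over the explant arrays. With the mean spike-in difference as a covariate, an alternative chosen after seeing the data, 1 probe set was called higher and 5 lower, while all 175 and 435 kept their sign, at medians of 0.86 and -0.82. As the covariate separates the B6 vehicle arrays from the other explants, the inhibitor effect in B6 and this measure cannot be told apart. In the higher set, the median level was 6.01 and 5.9 on the B6 vehicle arrays and 5.87 and 5.82 with CHIR99021 in B6.

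**Figure D5:**
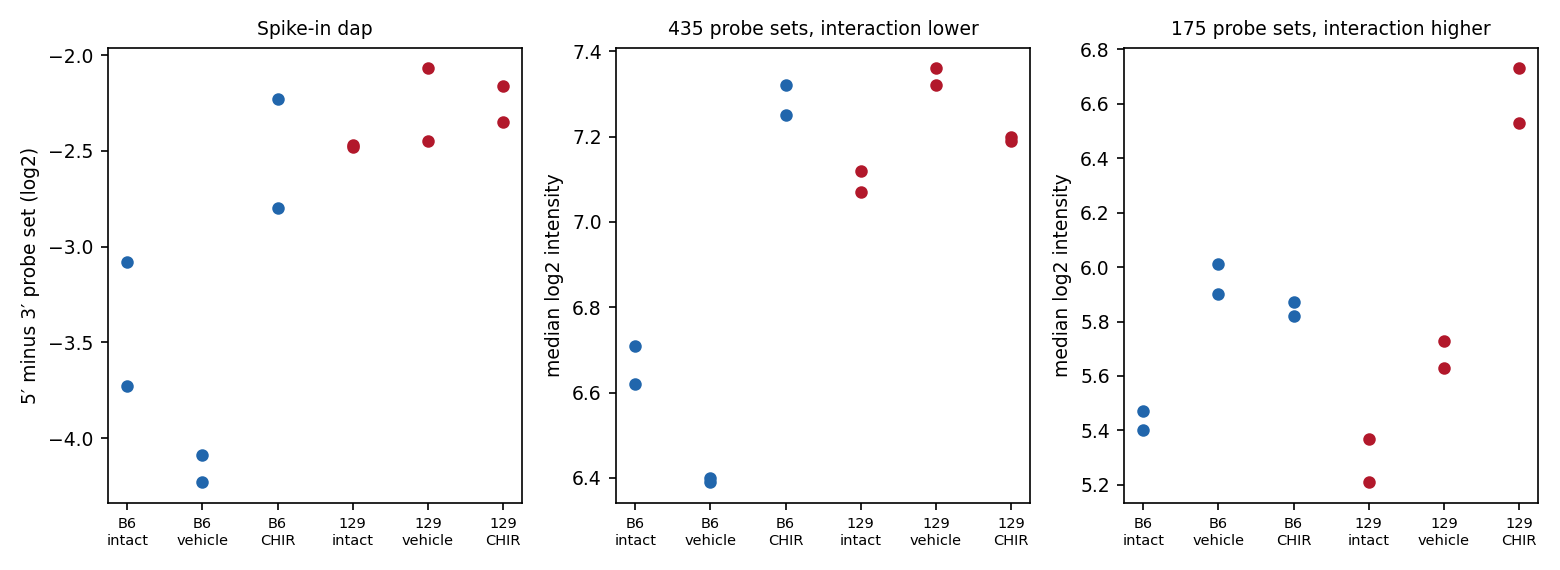
Left, 5′ minus 3′ log2 signal of the spike-in dap on each array (2 points a group, B6 in blue, 129 in red). Middle and right, median log2 intensity on each array of the 435 probe sets called lower and of the 175 called higher. Both sets were selected by the interaction on the explant arrays shown. The B6 vehicle arrays are the lowest in the left and middle panels, and the 129 CHIR99021 arrays are the highest in the right panel.

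Other probe sets of the genes in the lower set had smaller interactions. Of the 354 genes with a probe set called lower, 319 had others, and these 864 had a median interaction of -0.12, with 637 below 0, and a median level of 8.12 against 6.99 for those called. Of the 73 genes of the higher set with others, the 124 other probe sets had a median of 0.23, with 105 above 0. At the probe set with the highest level, which stands for a gene in the lists, 109 genes were called higher and 65 (0.357%) lower.

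Hif1a, the oxygen-sensitive transcription factor, is an example of this shape. The called probe set read 5.85 and 6.09 with vehicle and 7.26 and 7.5 with CHIR99021 in B6, and 7.37 and 7.32, then 7.02 on both arrays in 129, with an interaction of -1.74 ± 0.17 (adjusted p = 0.002). The 3 other probe sets of Hif1a gave 0.15, -0.13 and -0.34 and were not called. The ubiquitin ligase gene Nedd4 (-1.83), the zinc finger gene Rlf (-1.81), the microtubule linker gene Hook3 (-1.7), the caspase inhibitor gene Xiap (-1.68), the microtubule protein gene Map1b (-1.61) and 4632427E13Rik (-2.12) were called at 1 probe set each. None of their other probe sets was called, and those with a positive sign were 1 of Xiap (0.13) and 1 of 4632427E13Rik (0.29). The nuclear noncoding RNA Malat1 was called at 3 of its 7 probe sets, the largest at -1.94 ± 0.2 (adjusted p = 0.00295), with 7.87 and 7.71, then 9.69 and 9.68 in B6, and 9.38 and 9.13, then 9.3 and 9.11 in 129. Ndnf, a secreted neurotrophic factor gene, was called at 1 of 2 (-1.63), and the call ended without any 1 explant array except 129 CHIR99021 replicate 2, at -1.76 to -1.5.

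Nox4, a hydrogen peroxide-producing NADPH oxidase, had the largest negative interaction and another shape. It read 3.57 and 3.61, then 6.69 and 6.38 in B6, and 3.47 and 3.13, then 3.36 and 3.58 in 129. Only the B6 explants with CHIR99021 stood above a low level shared by the other explants and the intact retinas (3.12 to 3.33). The interaction was -2.77 ± 0.19 (adjusted p = 4.96e-04), with a rise of 2.95 ± 0.13 in B6. The other probe set of Nox4 rose in B6 too (0.65, adjusted p = 0.0025) but was not called by the interaction (-0.6, adjusted p = 0.105).

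Inflammatory genes differed in several ways. Cxcl5, a chemokine that attracts neutrophils, rose in both strains and further in B6. It read 4.65 and 4.81, then 6.95 and 6.99 in B6, and 3.72 and 4.0, then 4.3 and 4.75 in 129, with an interaction of -1.58 ± 0.21 (adjusted p = 0.00724). Il6, the cytokine of acute inflammation, took its interaction from 129. It read 3.92 and 4.35, then 4.22 and 3.9 in B6, and 5.76 and 5.33, then 3.84 on both arrays in 129. The level in 129 with vehicle stood above the other 3 groups and fell to theirs with the inhibitor, with an effect of -1.7 ± 0.16 in 129, -0.07 ± 0.16 in B6 and an interaction of -1.63 (adjusted p = 0.00952). Cxcl10, an interferon-induced chemokine, rose in B6 from 7.21 and 7.95 to 8.74 and 9.46 and in 129 read 6.95 and 6.77, then 6.52 and 6.7. Its interaction of -1.77 ± 0.36 (adjusted p = 0.0399) ended without any 1 of the 129 arrays, B6 vehicle replicate 1 and B6 CHIR99021 replicate 2, at -2.14 to -1.4. These were the 3 called of 40 measured cytokines and chemokines, all lower, whose median interaction was -0.05. Over all genes, 0.357% were called lower, at a median of 0.03.

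Of 49 measured interferon-inducible genes, 6 were called lower and none higher, where 0.357% of all genes were called lower, and 5 had a value above 0, with a median of -0.48 against 0.03 over all genes. In B6, 18 rose and none fell, with a median of 0.22, and in 129, 3 rose and 5 fell, with a median of -0.13. Over all genes, 8.58% rose in B6 and 7.86% fell in 129. Irgm1, an interferon-induced GTPase, read 9.74 and 9.63, then 10.65 and 10.61 in B6, and 10.62 and 10.59, then 10.6 and 10.49 in 129. Ifit2, an antiviral effector, read 10.16 and 10.01, then 11.08 and 11.21 in B6, and 11.04 and 10.92, then 11.05 on both arrays in 129. In both, the B6 vehicle arrays were below the arrays of the other 3 groups, and the interactions were -1.0 ± 0.14 (adjusted p = 0.00911) and -0.99 ± 0.12 (adjusted p = 0.00573). These are also the arrays with the lowest spike-in 5′ signal, and with that measure as a covariate 0 members were called by limma.

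The GTPase gene Ifi47 had an interaction of -1.06 and the guanylate-binding protein gene Gbp7 one of -0.81. The call of Ifi47 ended without any 1 of the B6 vehicle arrays, 129 vehicle replicate 1 and 129 CHIR99021 replicate 2, at -1.21 to -0.91, and that of Gbp7 without any 1 explant array except B6 CHIR99021 replicate 2, at -0.91 to -0.71. Mndal, a p200 family DNA sensor of this response, had an interaction of -1.85 (adjusted p = 0.0333) and was low in 129 at 3.41 to 4.0. Its call ended without any 1 explant array except B6 vehicle replicate 2, at -2.2 to -1.51. The remaining called members, named after their values were seen, were the transcription factor gene Irf1 (-0.6) and the nucleotide kinase gene Cmpk2 (-0.68). The count of 6 was 2 without either B6 vehicle array, 2 and 3 without 129 vehicle replicate 1 or 2, 3 and 2 without 129 CHIR99021 replicate 1 or 2, and 10 without either intact B6 array. It rose to 10 in the explants alone and after housekeeping centring, to 12 with only probe sets above the median level and to 15 with a trend and robust estimation of the variance.

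Microglial genes, those of the macrophages that reside in the retina, gave more falls than rises with the inhibitor. In 129, 18 of 41 fell and 3 rose, where 7.86% of all genes fell and 7.28% rose. In B6, 24 fell and 2 rose, where 12.5% of all genes fell and 8.58% rose. The interaction called 3 higher and 2 lower, with a median of 0.17. Over all genes it called 0.599% higher and 0.357% lower, with a median of 0.03. The microglial calcium-binding protein gene Aif1 read 6.22 and 6.2, then 4.35 and 4.65 in B6, and 4.7 and 4.62, then 3.93 and 3.72 in 129. It fell in both and further in B6, from a higher level, with an interaction of 0.87 (adjusted p = 0.0239). The signalling adaptor gene Tyrobp (0.68) and the complement gene C1qa (0.57) had the same shape. The mannose receptor gene Mrc1 (-1.12) rose in B6 with no call in 129, and the lipopolysaccharide receptor gene Cd14 (-0.79) fell further in 129.

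Each of these calls depended on single arrays. That of Aif1 ended without any 1 explant array except B6 CHIR99021 replicate 2 and 129 CHIR99021 replicate 2, at 0.72 to 1.02, that of Cd14 without any 1 except B6 CHIR99021 replicate 2, at -0.94 to -0.63, and that of Mrc1 without any 1 of the 8, at -1.29 to -0.95. Tyrobp lost it without any 1 of B6 vehicle replicate 1, B6 CHIR99021 replicate 1, 129 vehicle replicate 2 and 129 CHIR99021 replicate 1, at 0.59 to 0.76, and C1qa without any 1 of the 129 arrays, B6 vehicle replicate 1 and both B6 CHIR99021 arrays, at 0.49 to 0.65. Gpnmb, a lysosomal glycoprotein, went against the list and rose in both strains, by 2.79 in 129 and 3.41 in B6, with an interaction that was not called (-0.62, adjusted p = 0.136). The summed intensity of the 41 genes was 14342 and 13209, then 10739 and 10876 in B6, and 7671 and 7319, then 7814 and 8429 in 129. The part of these cells in the inflammatory results was not tested.

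Of 28 genes of cholesterol synthesis 15 rose in 129 and 17 in B6, where 7.28% and 8.58% of all genes rose. The interaction called 3 lower, where 0.357% of all genes were called lower, and the median of the list was -0.18. The sterol demethylation enzyme gene Msmo1 rose by 0.65 in 129 and 1.54 in B6 (interaction -0.89, adjusted p = 0.0472), and Nsdhl of the same step by 0.31 and 0.83 (-0.52, adjusted p = 0.0456). Mylip, the ligase that degrades the LDL receptor, fell in 129 (-0.62) with no call in B6 (0.11), with an interaction of -0.73 (adjusted p = 0.0194). The calls of Msmo1 and Nsdhl ended without any 1 of the 8 explant arrays or of the intact 129 arrays, at -1.02 to -0.75 and -0.57 to -0.46. That of Mylip ended without any 1 of the B6 vehicle and 129 vehicle arrays and 129 CHIR99021 replicate 1, at -0.83 to -0.62.

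Of 45 matrix and migration genes, 3 were called lower, where 0.357% of all genes were called lower. The list as a whole was not shifted, with a median interaction of -0.02 and 21 of the 45 above 0. The aggrecanase gene Adamts4 was called at both of its probe sets, at -1.45 (adjusted p = 0.00198) and -0.96 (adjusted p = 0.0121), with 5.41 and 5.57, then 6.72 and 6.44 in B6, and 6.23 and 6.31, then 6.35 and 6.46 in 129 at the second. Mgp, the matrix Gla protein gene, fell in both strains and further in 129 (-0.76), and the integrin gene Itgav rose in B6 (-0.68). At the second probe set the call of Adamts4 ended without any 1 of B6 vehicle replicate 1, 129 vehicle replicate 2 and 129 CHIR99021 replicate 1, at -1.1 to -0.82. That of Mgp ended without any 1 explant array except B6 vehicle replicate 2, at -0.89 to -0.63, and that of Itgav without any 1 of the 8, at -0.76 to -0.6.

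Some glial genes were called. Of 29 genes of resting Müller glia, 1 was called lower, where 0.357% of all genes were called lower. The water channel gene Aqp4 read 10.62 and 10.58, then 10.35 and 10.62 in B6, and 10.44 and 10.51, then 9.14 and 9.59 in 129. It thus fell in 129 (-1.11), with no call in B6 (-0.11), and the interaction was -1.0 (adjusted p = 0.0291). The call ended without any 1 explant array except B6 CHIR99021 replicate 1 and 129 CHIR99021 replicate 2, at -1.22 to -0.78. Of 30 genes of reactive gliosis, Cxcl10 and the membrane protein gene Emp1 were called lower. Emp1 (-0.74, adjusted p = 0.017) rose in B6 from 4.98 and 5.08 to 5.44 and 5.54 and read 7.9 to 8.32 in 129, and it lost the call without any 1 of B6 vehicle replicate 1, B6 CHIR99021 replicate 2, 129 vehicle replicate 2 and 129 CHIR99021 replicate 2, at -0.83 to -0.65. Phlda3, a p53 target, rose in B6 (interaction -0.66, adjusted p = 0.0381) and lost its call without any 1 of the 8 explant arrays, at -0.76 to -0.56.

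Many responses to the inhibitor gave no call between the strains. Targets of ATF4 and of the unfolded protein response rose in both, with 25 of 33 in 129 and 26 in B6, medians of 0.53 and 0.49, and no interaction called. Of 27 rod genes 13 fell in 129 and 15 in B6, of 15 cone genes 6 and 11, of 20 bipolar cell genes 10 and 10, and of 33 synaptic genes 12 and 16, where 7.86% and 12.5% of all genes fell, again with no interaction called. Of 22 axon injury genes 10 rose in 129 and 13 in B6, where 7.28% and 8.58% of all genes rose. None of 29 Notch pathway genes and 22 retinal progenitor factors was called, where 0.599% of all genes were called higher and 0.357% lower. A list with no call does not show that its genes responded alike, since the SE of a single interaction was, for example, 0.19 for Ccnd1 and 0.25 for Gfap.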

How the data were processed

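Neural retina of 2 mouse strains was measured on 12 arrays in 6 groups of 2, of which 8 were explants. The deposited values are linear intensities that the authors made with RMA, per the labels (version not given in the sources used here), which corrects background, quantile normalizes the arrays and summarizes each probe set. They were taken to log2, and 64 control probe sets were left out. Group means (6 in all) were estimated in limma 3.58.1 (lmFit, contrasts, eBayes without trend, R 4.3.3), with Benjamini-Hochberg adjustment over 45037 probe sets and a limit of 0.05. The number of arrays, 2 a group, limits the precision. Gene symbols came from the platform annotation, updated through RefSeq. Of the probe sets, 34945 had 1 symbol (34741 matched), 932 several and 9160 none. The probe set with the highest mean stood for each of 18193 genes, and probe sets with several symbols were left out of the lists.

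Named genes were up to 12 with the largest interaction in each direction (called, 1 symbol, highest explant mean at least the median level, the same sign for every combination of arrays), up to 4 called members of each of 45 gene lists, and genes the study follows. The comparison, members and lists were chosen with earlier results of these data known. The script was tested on simulated data. Alternatives were another scaling, filter, variance estimate, adjustment, choice of arrays or probe set, a replicate block, leaving out each array, and, chosen after seeing the data, a spike-in covariate. Python 3.11.15 with pandas 2.3.3 drew counts and motifs.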

Additional observations from a re-analysis of the deposited data

Results flagged for a closer look

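The effect of CHIR99021 differed between the strains, by the interaction term of limma, at 175 probe sets called higher and 435 called lower and at each gene named as called. The values below are interactions on the log2 scale, the effect in 129 minus that in B6. Among genes of cell division they were 2.38 for Kif2c, 1.94 for Ube2c, 1.84 for Birc5, 1.78 for Cdc20, 1.76 for Mki67, 1.74 for Cdca5 and for Bub1, 1.71 for Spc25 and 1.69 for Melk. Among genes of DNA replication and chromatin they were 1.04 for Mcm7, 0.99 for Mcm5, 0.93 for Asf1b, 0.88 for Tk1, 1.17 for Hmgb2 and 0.59 for Mbd1.

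Other genes with a positive value were Calcb (2.5), Slc5a8 (1.73), Rbp4 (1.7), Mt3 (1.2), Lin28a (0.78), Bmp1 (0.61) and the Wnt target Sp5 (0.83), and the microglial genes Aif1 (0.87), Tyrobp (0.68) and C1qa (0.57). Genes named by the rule for large negative values, which leaves out dim probe sets and those whose sign depends on the pairing of arrays, were Nox4 (-2.77), 4632427E13Rik (-2.12), Malat1 (-1.94), Mndal (-1.85), Nedd4 (-1.83), Rlf (-1.81), Cxcl10 (-1.77), Hif1a (-1.74), Hook3 (-1.7), Xiap (-1.68), Ndnf (-1.63) and Map1b (-1.61). Inflammatory and interferon-inducible genes with a negative value were Il6 (-1.63), Cxcl5 (-1.58), Ifi47 (-1.06), Irgm1 (-1.0), Ifit2 (-0.99), Gbp7 (-0.81), Mrc1 (-1.12) and Cd14 (-0.79). The remaining ones were Aqp4 (-1.0), Emp1 (-0.74), Phlda3 (-0.66), Ndp (-0.61), Msmo1 (-0.89), Mylip (-0.73), Nsdhl (-0.52), Adamts4 (-0.96), Mgp (-0.76) and Itgav (-0.68).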

How the results depend on the processing

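No interaction of a named called gene changed sign under the alternatives run, and 22 of the 55 called genes named kept their call without any 1 array. Without 1 array the interaction called 149 to 789 probe sets, 39 to 212 of them higher and 110 to 577 lower, and the effect of CHIR99021 2130 to 5799 in 129 and 4756 to 8779 in B6. Mitosis members called then numbered 10 to 40 and interferon-inducible ones 2 to 10. A trend and robust estimation of the variance gave 1464 calls (466 higher, 998 lower) and 15 interferon-inducible members. With the spike-in covariate, chosen after seeing the data, 6 probe sets were called (1 higher, 5 lower) by limma, with 1 mitosis member and 0 interferon-inducible members. The effect of CHIR99021 then called 226 probe sets in B6, against 8378 without the covariate, and 4338 in 129, against 5517. With only probe sets above the median level tested, which leaves dimmer members untested, 18 mitosis and 12 interferon-inducible members were called. In the 8 explants alone and after housekeeping centring, 10 interferon-inducible members were called. The cause of these differences was not tested. Housekeeping centring moved the median interaction of all probe sets from 0.007 to -0.045. Deviations of same-numbered arrays, over all probe sets, correlated between -0.107 and 0.044 over 15 pairs of groups, so that no pairing was seen. Whether same-numbered retinas shared an animal cannot be told from these values. With the replicate block the interaction called 519 probe sets (159 higher, 360 lower), the effect 5066 in 129 and 7773 in B6, and 34 mitosis and 7 interferon-inducible members were called.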

Other observations

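The FXYD family, small membrane proteins that regulate the sodium pump, was looked at after its values were seen. Of 7 genes with 10 probe sets, 4 probe sets of 4 genes were called higher and none lower by limma, where 0.389% of all probe sets were called higher. Fxyd3 read 8.06 and 8.11 with vehicle and 6.18 and 6.13 with CHIR99021 in B6, and 6.17 and 6.26, then 5.73 and 5.96 in 129, with an interaction of 1.56 ± 0.15 (SE, adjusted p = 0.00198). The B6 vehicle arrays, which also had the lowest mean spike-in 5′ minus 3′ difference, stood above all others. Fxyd1 (0.74, adjusted p = 0.0106) and Fxyd6 (0.83, adjusted p = 0.0391) were, among the explants, also highest in B6 with vehicle and fell there. Intact B6 retina read 8.86 and 8.65 for Fxyd6, above the 8.09 and 8.34 of these explants. In 129, Fxyd1 (-0.94) and Fxyd3 (-0.37) also fell, and Fxyd6 was not called (-0.33). Fxyd7 (1.02, adjusted p = 0.0201) rose in 129 (0.53) and fell in B6 (-0.5). Fxyd2, Fxyd4 and Fxyd5 were not called, with interactions of -0.29 to 0.45.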
